A study of Rattus norvegicus with 252 samples.

Results

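The genes described here are the 55 genes whose RNA was concentrated in the hippocampus, out of 32883 listed genes. They were selected on the 40 libraries of WT rats aged 2 months, 10 from each of hippocampus, cortex, striatum and cerebellum. A gene belonged when its mean count in those libraries was at least 10, its mean hippocampal level was 0 log2 CPM (counts scaled to a common library size) or more, and that level stood at least 2 log2 units, a 4-fold difference, above the mean of each other tissue. Of the listed genes 15776 reached the count minimum. The same rule applied to the other tissues gave 98 striatal, 59 cortical and 273 cerebellar genes.

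RNA sequencing was done on brain tissue of Long Evans rats. They were wild type (WT) or carried 1 copy of Q130 (heterozygous knock-in), an allele with an expanded glutamine repeat that models Huntington disease. Each of 60 animals, of 2, 6 or 12 months of age, gave striatum, cortex and hippocampus of the right side and cerebellum. The 240 libraries fall into 24 groups of 10, with 5 females and 5 males in each, and every group is of the same strain. Libraries of 2 and 6 months belong to batch 1 and those of 12 months to batch 2, per the labels, so age 12 months and batch cannot be told apart, whereas each comparison of genotypes lies within 1 batch. The labels used here do not say whether animals were littermates. Animals share first parts of their identifiers, whose meaning is not given. Most first parts hold both genotypes at 2 months, and few do at 6 months. At 12 months each holds 1 genotype only, so that grouping and genotype cannot be told apart there.

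The hippocampus holds the granule cells of the dentate gyrus and the pyramidal cells of the CA fields, which are wired in series and serve spatial and episodic memory. The granule cell layer continues to receive new neurons after birth, and their production declines with age in rodents. Genes that are high in these neurons and low in neocortex, striatum and cerebellum are commonly used to recognise hippocampal tissue in dissections. In Huntington disease the striatum is the region that degenerates first, and hippocampal function and plasticity are also affected in animal models.

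The deposited files name genes by Ensembl identifier only, and none of the 55 could be paired with a symbol (0 of 55). Lists of markers for granule cells, pyramidal cells and other cell types are written as symbols and could not be applied, so the label "hippocampus-enriched" was checked only in libraries that took no part in the choice. Known functions of single genes, protein sequences and promoters are not given for the same reason. These are measurements on pieces of tissue, so fewer cells of a type and less RNA per cell cannot be told apart.

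Total counts ran from 25.3 to 50.8 M per library with a median of 34.5 M. For 9 of the 240 libraries, the median correlation of log2 CPM with the other libraries of their labelled tissue was below 0.97. They are called libraries that stand apart, 8 of them are Q130 and 1 is WT, and they come from 7 animals. The mean level of the 55 genes was itself unusual in 3 of them. In the library labelled Q130 hippocampus 6 months male 5 that mean was -0.54 log2 CPM, and in the library labelled Q130 striatum 6 months male 1 it was 3.14. Both come from the same animal. All 55 genes lay below the range of the other hippocampal libraries of that age in the first, where 48 lay within the range of the striatal libraries. In the second all 55 lay above the striatal range and 52 lay within the hippocampal one. The library labelled Q130 striatum 12 months female 2 had a mean of 2.20, with 52 of the 55 genes above the striatal range and 38 below the hippocampal one. Results that rest on these libraries are followed by values without them.

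The 40 WT libraries of 2 months that chose the genes are included in the ranges that follow, and their separation was fixed by the rule, so the ranges are a description with no test. With the libraries that stand apart left out, the mean level of the 55 genes was 2.96 to 3.37 log2 CPM in 58 hippocampal libraries. It was -0.29 to 0.19 in 58 cortical, -0.81 to -0.13 in 57 striatal and -1.69 to -1.12 in 58 cerebellar libraries. Among these libraries the hippocampal range overlapped no other. With all libraries it ran from -0.54 to 3.37 in hippocampus and from -0.81 to 3.14 in striatum, so the ranges overlapped, as the plot of every library shows. Without the libraries that stand apart the order of the other tissues was cortex, striatum and cerebellum, and of these neighbours cortex and striatum overlapped. Added together in the same libraries, the 55 genes took a median of 1680 CPM in hippocampus (1460 to 1810), 202 in cortex, 177 in striatum and 79.4 in cerebellum.

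**Figure D1:**
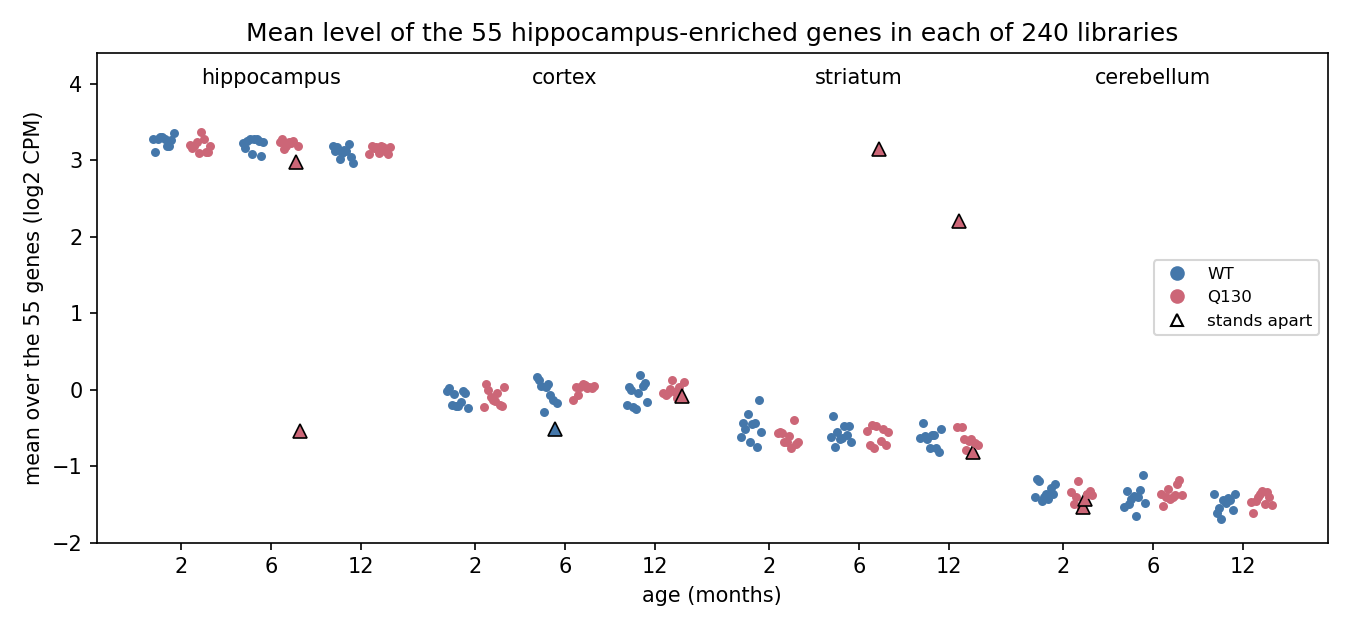
Mean over the 55 genes (vertical axis, log2 CPM) in each of the 240 libraries, by tissue, age in months (horizontal axis) and genotype (blue WT, red Q130); triangles are the 9 libraries that stand apart. Hippocampal libraries sit between 2.96 and 3.37 except the Q130 male of 6 months at -0.54, and 2 libraries labelled Q130 striatum sit at 3.14 and 2.20.

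The margins that chose the genes were wide for many of them. As values used by the rule they are a description and carry no test. Hippocampus exceeded the next tissue by 2.04 to 5.91 log2 units with a median of 2.85, that is 4.1- to 60-fold with a median of 7.19-fold. The margin was above 3 for 25 genes, above 4 for 9 and above 5 for 4. The 3 genes just inside the limit of 2 had margins of 2.036, 2.046 and 2.071, and the 3 just outside had 1.979, 1.976 and 1.968, so the edge of the list is not a gap.

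The tissue that came second divides the list. Cortex came second for 32 genes, with a median margin of 3.04. For 18 genes it was striatum, with a median margin of 2.54, and for 5 genes it was cerebellum, with a median margin of 3.24. Cerebellum was the lowest of the 4 tissues for 39 genes, striatum for 12 and cortex for 4. In WT rats of 2 months 24 of the 55 genes still averaged at least 1 CPM in cortex, 20 in striatum and 14 in cerebellum, and 13 did so in all 3. At the other end, 4 genes averaged under 0.1 CPM in all 3 other tissues. The list therefore runs from genes read almost only in hippocampus to genes that are plainly present elsewhere at a lower level. In the heat map of group means the hippocampal columns are the brightest in every row. Within a tissue the 6 columns of genotype and age are not alike in each row. For example, ENSRNOG00000012280 had hippocampal means of 1.11 log2 CPM in WT rats of 2 months and -0.01 in those of 12 months, which are of batch 2.

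**Figure D2:**
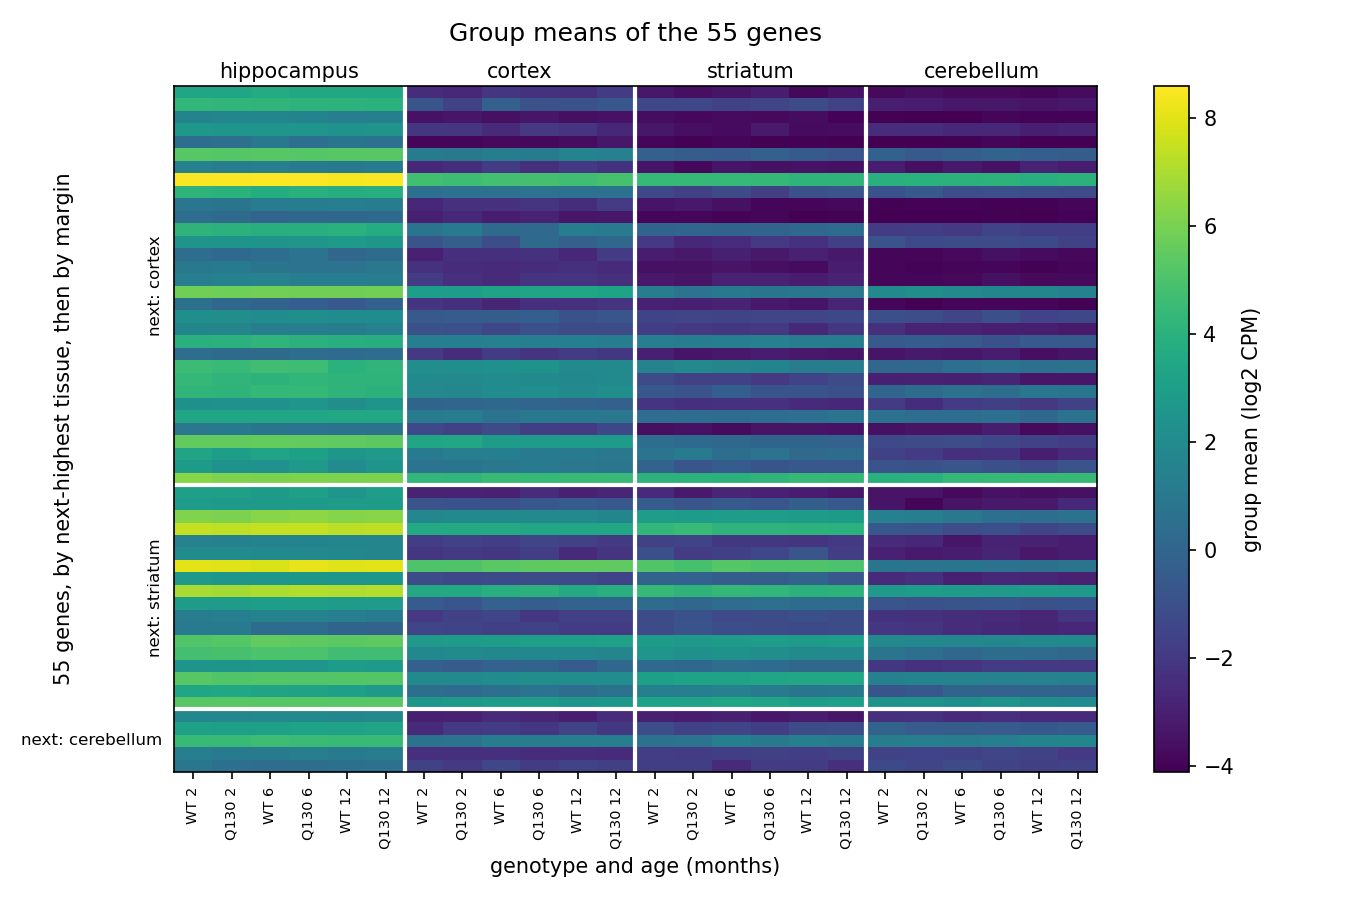
Group means (colour, log2 CPM, libraries that stand apart left out) of the 55 genes (rows, by the tissue that came second and then by margin) in the 24 groups (columns, by tissue, age in months and genotype). The hippocampal block is brightest in each row, and 32 rows have cortex, 18 striatum and 5 cerebellum as the next tissue.

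Levels within hippocampus, compared between genes on the TPM scale (a relative abundance that takes account of transcript length), spanned 0.38 to 263 TPM with a median of 6.79. Of the 55 genes 26 had 10 TPM or more and 5 had less than 1. Together they held 0.113 to 0.137% of all TPM in hippocampal libraries of WT rats of 2 months. The single highest gene held 20.4% of that sum, the highest 4 held 52.8% and the highest 10 held 70.7%. Transcript length, which the rule did not use, was read from the ratio of counts to TPM. It was 0.242 to 6.38 times that of the median gene, with a median of 0.998. Most of the RNA of the list is thus that of a few genes, while the mean over log2 levels used above weighs the 55 alike.

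ENSRNOG00000057703 was the highest, with 263 TPM in hippocampus against 18.5 in cortex, 13.1 in striatum and 12.4 in cerebellum of WT rats of 2 months. Its CPM in the 10 WT hippocampal libraries ran from 330 to 389 with a median of 364 at 2 months, from 338 to 455 with a median of 388 at 6 months and from 328 to 400 with a median of 342 at 12 months. In Q130 hippocampus the corresponding values were 325 to 436 (median 352) at 2 months and 321 to 445 (median 364) at 12 months. At 6 months they were 20.3 to 420 (median 383), and 355 to 411 in the 8 libraries that did not stand apart. The groups overlapped at every age, and the 1 very low value is that of male 5. In WT cortex this gene stayed between 19.1 and 41.6 CPM over the 3 ages, below every WT hippocampal library.

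ENSRNOG00000015397 came next with 224 TPM in hippocampus, 27.6 in cortex, 26.0 in striatum and 1.65 in cerebellum. Its hippocampal CPM was 213 to 309 (median 267), 143 to 297 (median 255) and 222 to 288 (median 247) in WT rats of 2, 6 and 12 months. In Q130 they were 243 to 290 (median 250), 27.5 to 333 (median 290; lowest 204 without libraries that stand apart) and 203 to 306 (median 288). All these groups overlapped.

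ENSRNOG00000018580 had the largest margin, 5.91 log2 units. In WT rats of 2 months its hippocampal CPM was 8.83 to 12.0 (median 10.3), against 0.0259 to 0.245 in cortex, 0 to 0.199 in striatum and 0 to 0.111 in cerebellum. It was read 235 to 537 times in each hippocampal library that did not stand apart, and 0 to 3 times in each cerebellar library of 12 months. In the library labelled Q130 hippocampus 6 months male 5 it was at 0 CPM, and in the library labelled Q130 striatum 6 months male 1 it was at 11.6 CPM.

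Whether the enrichment holds outside the libraries that chose it was tested in the other 5 combinations of genotype and age. Hippocampus was compared with each other tissue of the same animals by edgeR's quasi-likelihood test with the animal as a block, and a gene was called where all 3 contrasts were higher in hippocampus at a Benjamini-Hochberg adjusted p under 0.05. All 55 genes were called in Q130 rats of 2 months (7.34% of all genes tested were), in WT rats of 6 months (8.52%), in Q130 rats of 6 months (6.52%) and in WT rats of 12 months (10.2%). In Q130 rats of 12 months 54 were called (8.11%). Without the libraries that stand apart all 55 were called in each combination that held such libraries. Hippocampus thus stood above each other tissue for nearly the whole list in animals of the other genotype and of later ages. Without an animal block 53 were called in Q130 rats of 12 months.

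The size of the margin was kept less uniformly than its direction. A margin of at least 2 remained in 49 genes in WT rats of 12 months, where no library stood apart. It remained in 50 genes in Q130 rats of 2 months (49 without the libraries that stand apart) and in 48 in WT rats of 6 months (46 without). In Q130 rats the number was 37 at 6 months (48 without) and 47 at 12 months (46 without). The median margin was 2.72 to 2.80 in WT rats of 6 and 12 months against 2.84 at 2 months on the same scale. Some loss is built into a list chosen by a limit in 1 set of libraries. When the rule was applied to WT libraries of 6 months instead, it again gave 55 genes, and 46 were shared.

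The genotype question was asked of hippocampus at each age by edgeR's quasi-likelihood test with sex as a covariate. At none of the 3 ages was any of the 55 genes called, and no other gene was either (0% of all genes tested at 2, 6 and 12 months). DESeq2 called 0 of the 55 at each age as well. An unadjusted p under 0.05 was reached by 3 genes at 2 months, 0 at 6 months and 4 at 12 months. Here and below, counts at an unadjusted p are not set beside all genes and are a description only. The WT libraries of 2 months also chose the genes, so estimates at that age lean towards lower values in Q130 by construction.

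At 2 months the estimates of 20 genes were higher in Q130 and those of 35 lower, with a median log2 fold change of -0.05 (range -0.43 to 0.19) against 0.00 over all genes tested. At 12 months 34 were higher and 21 lower, with a median of 0.04 (range -0.32 to 0.45). The 95% interval of the fold change lay within 1.5-fold in either direction for 52 genes at 2 months and 51 at 12 months. Larger differences than that are outside the intervals for these genes, while smaller ones could not be told from none.

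At 6 months the picture depended on the 2 hippocampal libraries that stand apart. With all 20 libraries 6 estimates were higher and 49 lower, the median was -0.16 (range -0.61 to 0.27), and the interval of 12 genes lay within 1.5-fold. Without the 2 libraries 27 were higher and 28 lower, the median was 0.00 (range -0.49 to 0.39), and the interval of 52 genes lay within 1.5-fold. An unadjusted p under 0.05 was then reached by 3 genes, with 0 called. Leaving out male 5 alone gave a median of -0.01. The 98 striatum-enriched genes give the mirror image: of 79 tested, 78 had higher estimates in Q130 hippocampus of 6 months with a median of 0.76, and 38 with a median of 0.00 without the 2 libraries. The plot of genotype differences shows the 6-month estimates with and without these libraries side by side.

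**Figure D3:**
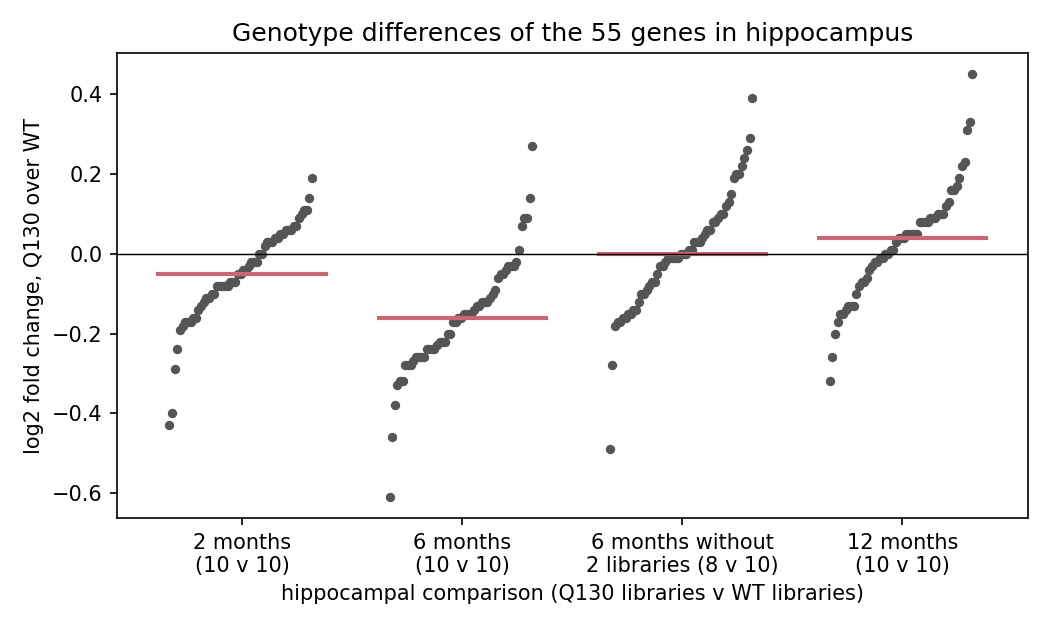
Log2 fold change of Q130 over WT (vertical axis) for each of the 55 genes (dots, sorted) in hippocampus at 2, 6 and 12 months, with red lines at the medians. The median lies at -0.05 at 2 months, -0.16 at 6 months, 0.00 at 6 months without the 2 libraries that stand apart, and 0.04 at 12 months.

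The mean over the 55 genes tells the same in single libraries. In WT hippocampus it ran from 3.10 to 3.36 (median 3.27) at 2 months, from 3.06 to 3.27 (median 3.24) at 6 months and from 2.96 to 3.21 (median 3.12) at 12 months. In Q130 hippocampus it ran from 3.09 to 3.37 (median 3.18), from -0.54 to 3.27 (median 3.20) and from 3.08 to 3.19 (median 3.16). The genotypes overlapped at each age. Whether the difference between genotypes changed with age was tested in all 60 hippocampal libraries, and no gene of the list was called for 6 against 2 months or for 12 against 2 months (0% of all genes tested in both). An unadjusted p under 0.05 was reached by 1 of the 55 in each, and by 7 and 3 without the libraries that stand apart, where 0 were called too. DESeq2 called 0 for both. The WT libraries of 2 months that chose the genes enter these tests, so the changes lean towards higher values in Q130 by construction.

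Outside hippocampus fewer of the 55 genes had enough counts to be tested, and those that passed the filter are not the whole list. The rule also required low levels in WT cortex, striatum and cerebellum of 2 months. Estimates at that age in these tissues therefore lean towards higher values in Q130 by construction. In cortex 36, 37 and 33 genes were tested at 2, 6 and 12 months and 0 were called (0.00645%, 0% and 0% of all genes tested), with 0, 1 and 1 at an unadjusted p under 0.05 and 0 by DESeq2. Without the libraries that stand apart 0 were called at 6 and 12 months as well. In striatum of 2 months 33 were tested and 0 called, where 2.54% of all genes were called. There 5 of the 33 had an unadjusted p under 0.05, and the smallest adjusted p was 0.0581 by edgeR. DESeq2, which gave no adjusted p for 45 of the 55, called 2 genes lower in Q130. It called 1013 of the 22007 genes it was run on. The mean over the 55 genes was -0.62 log2 CPM (-0.77 to -0.40) in Q130 striatum of 2 months and -0.49 (-0.75 to -0.13) in WT. These ranges overlapped, and the difference of the means was not tested.

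In striatum of 6 months 32 of 32 estimates were higher in Q130, a median of 0.65 on the log2 scale and 0 called (0% of all genes tested). Without the libraries that stand apart 12 were higher and 20 lower, with a median of -0.03. In striatum of 12 months 31 of 33 estimates were higher, with a median of 0.50 and 0 called (0%), and without the libraries that stand apart 17 of 34 were higher, with a median of -0.01. At each of these ages 1 library holds the high values, male 1 at 6 months and female 2 at 12 months. DESeq2 called 0 at both ages among the genes it gave an adjusted p (38 and 25 of the 55 had none), and by edgeR 4 and 5 genes had an unadjusted p under 0.05. Without the libraries that stand apart 0 were called at either age.

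In cerebellum the list was tested for 28, 27 and 24 genes, with 0 called at 2 months (0% of all genes tested), 0 at 6 months (0.287%) and 1 at 12 months (1.57%). An unadjusted p under 0.05 was reached by 1, 2 and 1 genes. At 2 months 0 were called without the libraries that stand apart too, and DESeq2 called 0 at each age, with no adjusted p for 47 and 46 of the genes at 6 and 12 months. ENSRNOG00000013304 was the gene called. Its CPM in WT cerebellum of 12 months was 0.717 to 1.49 (median 1.09), and in Q130 cerebellum it was 1.33 to 1.90 (median 1.63). All 10 Q130 libraries lay above the WT median and 6 of them above every WT library, but the ranges overlapped. The log2 fold change was 0.53 ± 0.12 (SE, n = 10 and 10), with an adjusted p of 0.0278 by edgeR's quasi-likelihood test.

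These cerebellar values rest on 24 to 70 counts per library, and the call is near the limit for adjusted p. DESeq2 gave ENSRNOG00000013304 no adjusted p, and leaving out 1 library at a time kept the call in 14 of 20 fits with adjusted p from 0.00886 to 0.0597 (edgeR). The 6 fits that lost it left out Q130 male 2, Q130 male 5, WT female 2, WT female 5, WT male 1 or WT male 4. In cerebellum of 2 and 6 months its log2 fold change was -0.10 ± 0.17 and 0.04 ± 0.16, and in hippocampus of 12 months it was -0.02 ± 0.07, none of them called.

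Age was compared between 6 and 2 months, which belong to the same batch, by edgeR's quasi-likelihood test with sex as a covariate. In WT hippocampus 12 of the 55 genes were called, 6 higher at 6 months and 6 lower, where 8.52% of all genes tested were called higher and 8.56% lower. The median over the list was -0.02 and over all genes 0.00, so the list as a whole did not shift. Lower values at 6 months are partly built in, because the 2-month libraries chose the genes for a high level there.

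ENSRNOG00000012280 fell the most, and it did so in both genotypes. In WT hippocampus its CPM was 1.66 to 2.58 (median 2.20) at 2 months and 0.811 to 1.61 (median 1.33) at 6 months. Every 6-month library lay below every 2-month library. In Q130 hippocampus it was 1.42 to 2.66 (median 2.19) at 2 months and 0.617 to 1.74 (median 1.29) at 6 months, and in the 8 libraries of 6 months that did not stand apart it was 0.906 to 1.74. Of these 8 libraries 5 lay below every 2-month library, and all 8 lay below the 2-month median.

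Its log2 fold change from 2 to 6 months was -0.74 ± 0.12 (SE) in WT, with an adjusted p of 0.000154 by edgeR. In Q130 it was -0.80 ± 0.14 with an adjusted p of 0.00566 by edgeR, and -0.79 ± 0.12 with 0.000621 without the libraries that stand apart. No Q130 library of either age was used in the choice of genes. The call held in all 20 fits that left out 1 Q130 library, with log2 fold changes from -0.87 to -0.73. The difference between genotypes in this change was -0.05 ± 0.23, and -0.02 ± 0.23 without the libraries that stand apart, not called in either.

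At 12 months, in batch 2, the median CPM of ENSRNOG00000012280 was 0.936 in WT (0.558 to 1.55) and 1.04 in Q130 (0.354 to 1.35). Of the 10 libraries of 12 months in each genotype, 9 in WT and 8 in Q130 lay below the 6-month median of their genotype. In each genotype 4 lay below every 6-month library, with libraries that stand apart left out, and the ranges overlapped. Age and batch cannot be told apart there. The gene was read 13 to 102 times per hippocampal library, with a median of 45.5. Over the 6 hippocampal groups it had the widest span of means in the list, 1.18 log2 units.

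ENSRNOG00000038784 was the other gene with the smallest adjusted p among those lower at 6 months in WT. Its CPM was 14.9 to 20.7 (median 18.0) at 2 months and 8.44 to 17.9 (median 13.2) at 6 months, and 7 of the 10 libraries of 6 months lay below every library of 2 months. The log2 fold change was -0.41 ± 0.09 with an adjusted p of 0.00306 by edgeR. In Q130 it was -0.31 ± 0.33 with all libraries, and -0.05 ± 0.09 without the libraries that stand apart, not called in either. The Q130 CPM was 10.3 to 20.3 at 2 months and 0.274 to 19.9 at 6 months, or 12.9 to 19.9 without those libraries. The test of the difference between genotypes gave 0.10 ± 0.28 with all libraries. It gave 0.33 ± 0.14 with an adjusted p of 0.413 by edgeR without the libraries that stand apart. The changes were thus not shown to differ. Because WT libraries of 2 months chose the genes, this difference leans upwards by construction.

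Among genes that rose in WT, ENSRNOG00000000307 had the smallest adjusted p. Its CPM was 28.9 to 44.0 (median 35.9) at 2 months and 39.2 to 52.1 (median 46.6) at 6 months, with 7 of 10 libraries of 6 months above every library of 2 months. The log2 fold change was 0.39 ± 0.07 with an adjusted p of 0.00104 by edgeR. In Q130 it was 0.04 ± 0.20, and 0.18 ± 0.08 with an adjusted p of 0.247 by edgeR without the libraries that stand apart.

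ENSRNOG00000018580, the gene of the largest margin, also rose in WT. Its CPM went from 8.83 to 12.0 (median 10.3) at 2 months to 10.4 to 15.5 (median 13.3) at 6 months, and 7 of 10 libraries of 6 months lay above every library of 2 months. The log2 fold change was 0.33 ± 0.07 with an adjusted p of 0.00174 by edgeR. In Q130 it was 0.00 ± 0.34, and 0.10 ± 0.09 without the libraries that stand apart, not called in either.

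**Figure D4:**
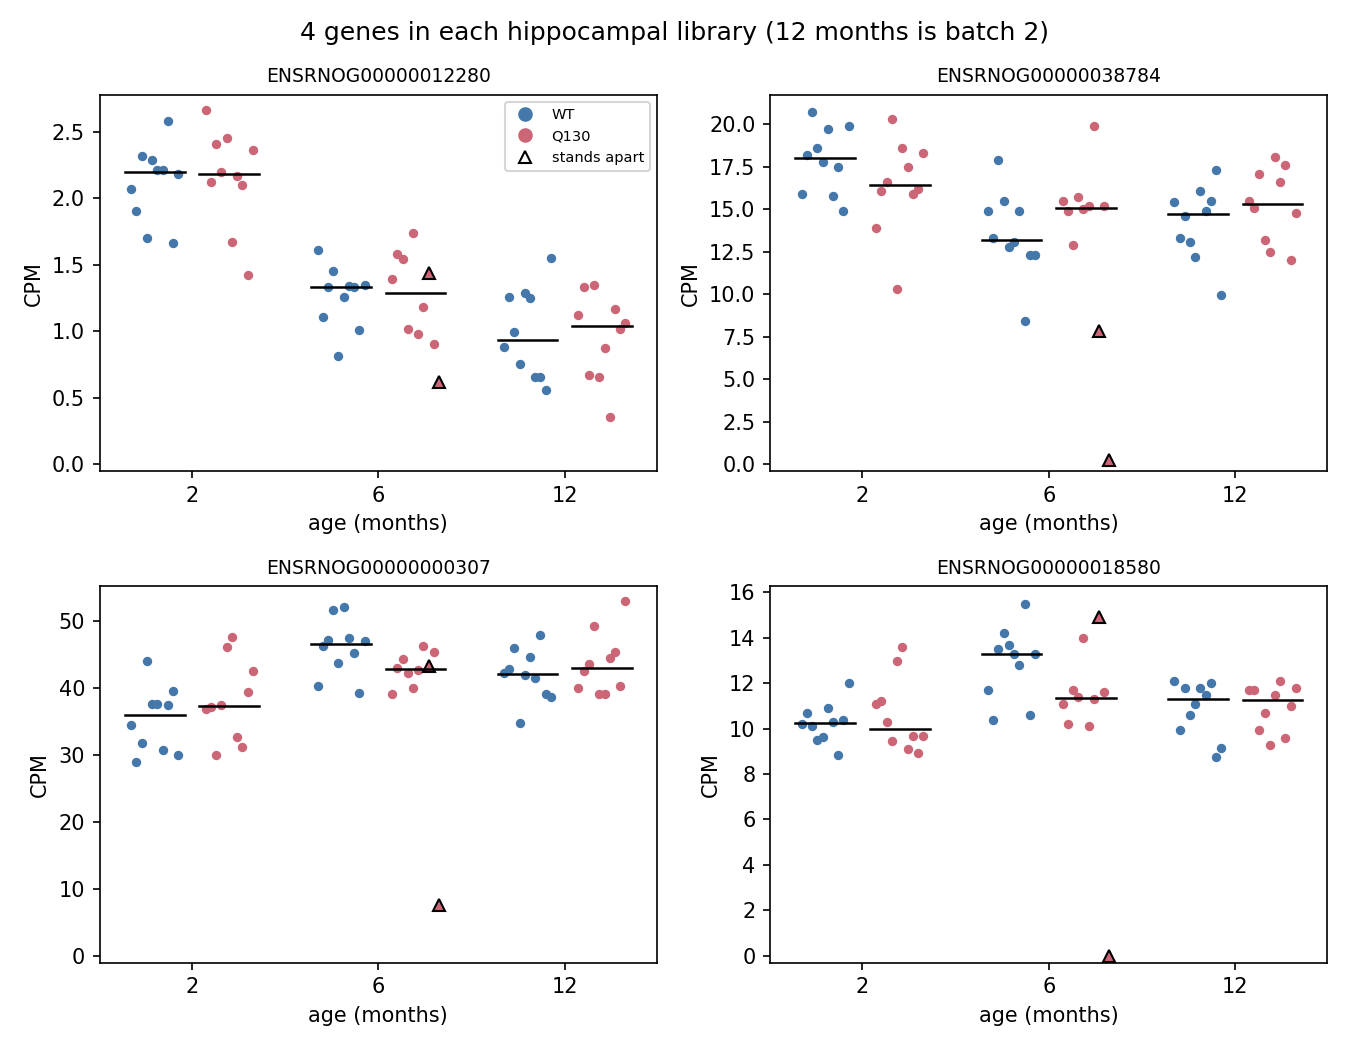
CPM (vertical axes) of 4 genes in each hippocampal library by age in months (horizontal axes) and genotype (blue WT, red Q130), with black lines at group medians and triangles for libraries that stand apart. ENSRNOG00000012280 has WT medians of 2.20, 1.33 and 0.936, and its WT ranges at 2 and 6 months do not overlap.

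In Q130 hippocampus 1 of the 55 genes was called between 6 and 2 months (0.607% of all genes tested were called higher and 0.445% lower). Estimates were higher at 6 months for 11 genes and lower for 44, with a median of -0.12. Without the libraries that stand apart 34 were higher and 21 lower, the median was 0.06 and 2 were called (1.99% of all genes higher, 2.36% lower). The gene added was ENSRNOG00000046863. Its CPM in Q130 was 59.4 to 87.0 (median 65.7) at 2 months and 73.6 to 107 (median 86.9) in the 8 libraries of 6 months, 4 of which lay above every 2-month library.

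For ENSRNOG00000046863 the log2 fold change in Q130 was 0.32 ± 0.08 with an adjusted p of 0.0224 by edgeR without the 2 libraries, and 0.22 ± 0.26 with 0.818 with them. In WT it was 0.15 ± 0.05 with an adjusted p of 0.0275 by edgeR, and the WT ranges of 65.0 to 82.0 and 70.4 to 93.4 CPM overlapped. Leaving out male 5 alone also gave the Q130 call, with an adjusted p of 0.015 by edgeR, and each of the other 19 fits that left out 1 library did not.

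The age estimates of the genotypes come from different animals and can be set side by side. Of the 55 genes 36 (65.5%) had the same sign in WT and in Q130 without the libraries that stand apart, 20 higher and 16 lower at 6 months, against 60.6% of all genes tested. Of the 12 called in WT 10 had the same sign in Q130, and of all genes called in WT 82.2% did. Both shares for the list are thus close to those of all genes. The plot of both estimates has ENSRNOG00000012280 alone in its lower left corner.

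**Figure D5:**
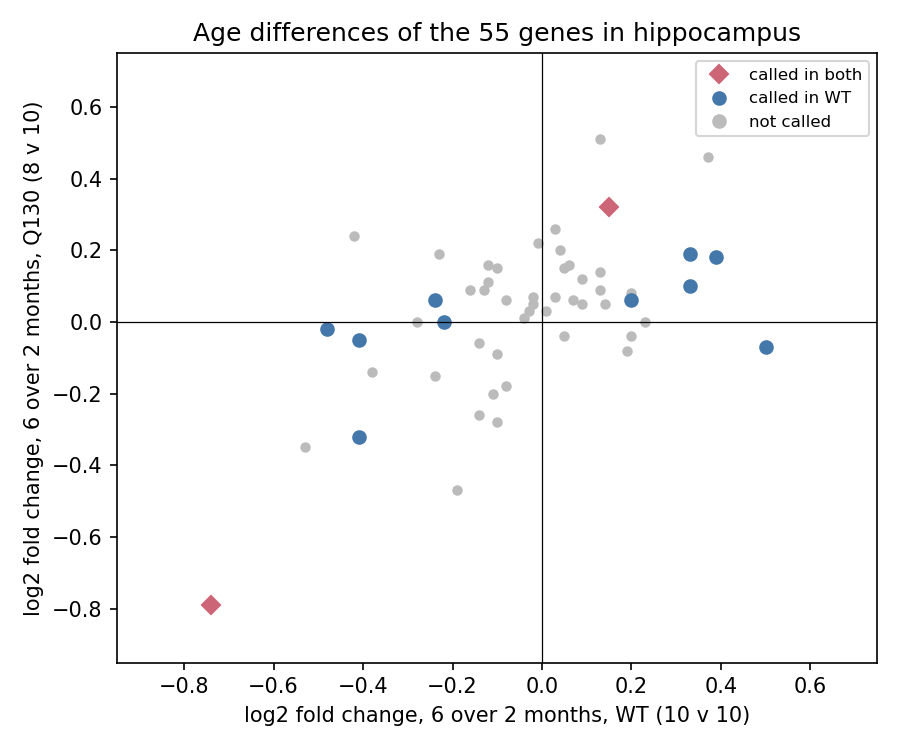
Log2 fold change from 2 to 6 months in hippocampus for each of the 55 genes in WT (horizontal axis) and in Q130 without the libraries that stand apart (vertical axis); red diamonds are called in both, blue dots in WT and grey dots in neither. ENSRNOG00000012280 lies at -0.74 and -0.79 and ENSRNOG00000046863 at 0.15 and 0.32.

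From 6 to 12 months, where batch changes with age, group means without the libraries that stand apart were lower for 36 genes in WT (median difference -0.09 log2 units) and for 37 in Q130 (median -0.07). No test was made of this, and these values were not set beside those of all genes, so they do not single out the list. Over all 6 hippocampal groups the means of a gene spanned 0.09 to 1.18 log2 units with a median of 0.32, and 46 genes stayed within 0.5. Besides ENSRNOG00000012280, ENSRNOG00000005246 spanned more than 1, with 1.15.

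Sex was compared within hippocampus at each age. At 2 and 6 months 0 of the 55 genes were called (0.116% and 0.0776% of all genes tested), with 0 and 1 at an unadjusted p under 0.05 and 0 by DESeq2. At 6 months 46 estimates were higher in females with a median of 0.14, and 25 with a median of -0.01 without the libraries that stand apart, where 0 were called as well. At 12 months 1 was called (0.392%), and 14 had an unadjusted p under 0.05, a count not set beside all genes. DESeq2 called 4 there, 2 higher and 2 lower in females, and it called 183 of the 22094 genes it was run on. The gene called by edgeR, ENSRNOG00000001036, had 33.9 to 40.4 CPM (median 37.1) in the 10 females and 38.2 to 50.4 (median 43.6) in the 10 males. All 10 females lay below the male median and 7 below every male.

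For ENSRNOG00000001036 the log2 fold change, females over males, was -0.23 ± 0.05 with an adjusted p of 0.026 by edgeR. At 2 months it was -0.10 ± 0.05, and at 6 months -0.12 ± 0.07 without the libraries that stand apart, neither called. This gene is also the one nearest to the limit of the rule, with a margin of 2.036.

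The median SD over libraries of a group was 0.21 to 0.27 log2 units for the 55 genes in the 6 hippocampal groups, against 0.11 to 0.16 for all genes, with libraries that stand apart left out. The difference was not tested, and levels differ between the lists. It does not describe each gene: the SD of ENSRNOG00000057703 was below the median of all genes in 5 of the 6 groups, for example 0.07 in WT rats of 2 months. ENSRNOG00000005246 varied most, with a mean SD of 0.73. Its CPM in WT hippocampus was 1.17 to 1.98 at 2 months, 0.315 to 1.94 at 6 months and 0.0377 to 1.53 at 12 months, so the lowest library was lower at each later age. The log2 fold change of females over males was 0.61 ± 0.41 at 6 months and 0.76 ± 0.33 at 12 months. The adjusted p was 0.402 by edgeR at 12 months, and neither was called. The 6-month value includes the library labelled Q130 hippocampus 6 months male 5, lowest of the males at 0.0343 CPM, where the next was 0.269. The gene was read 1 to 72 times per library, so counting error is part of this spread.

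ENSRNOG00000005048 came second with a mean SD of 0.51 and a higher level. In WT hippocampus its CPM was 5.50 to 10.3 (median 6.66) at 2 months, 2.67 to 8.0 (median 4.53) at 6 months and 2.39 to 8.60 (median 3.56) at 12 months. In Q130 it was 2.24 to 9.47 (median 5.60), 3.92 to 8.30 (median 7.52, libraries that stand apart left out) and 3.73 to 8.97 (median 4.92). All these groups overlapped, and no comparison of age, genotype or sex called it. It had the smallest margin of the list in WT rats of 6 and 12 months, 1.23 and 1.09.

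Between animals, most pairs of the 55 genes were only weakly correlated. Over the 58 hippocampal libraries that did not stand apart, after the mean of each group was taken off, the correlation of log2 CPM between pairs of genes had a median of 0.07 and ran from -0.64 to 0.89 over 1485 pairs. It was above 0.5 for 50 pairs and below -0.5 for 5. These correlations share libraries and depth, were not set beside those of other genes, and are given as a description. Counting error in genes with few counts lowers them too.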

How the data were processed

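RNA was extracted from flash-frozen tissue and made into Illumina libraries, per the labels' protocols. No source used here names the aligner, counter or build. The authors deposited estimated counts (expected counts, not all whole numbers), which were rounded. The authors also deposited a table in which every column has the total that TPM values have and which is therefore on the TPM scale; it served only to compare levels between genes. Transcript tables were not used. Repeat striatal libraries, 12 columns, were not used; that dotted column names mark them is an inference.

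The members and lists were chosen with earlier results of these data known. Tests used edgeR 4.0.16 in R 4.3.3 (filterByExpr by contrast, TMM, robust quasi-likelihood F test, Benjamini-Hochberg over all genes tested) and were tested on simulated data; DESeq2 1.42.0 was an alternative. CPM used TMM library sizes, log2 CPM a prior count of 2. SE are of log2 fold changes, intervals 1.96 SE either side. Genes were to be named by level, margin and calls; as no identifier pairs with a symbol, the 2 highest, the largest margin, the 2 most variable and at most 2 called in each direction of a comparison are named. Replicates are separate animals. Replicate numbers shared by genotypes are not labelled as pairs of animals. Alternatives were other normalization, filter, block, covariate, fit and tool, libraries left out, and other limits of the rule.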

Additional observations from a re-analysis of the deposited data

Results flagged for a closer look

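In each group of 10 the gap between the highest or lowest library and its neighbour was set against the group's range, for the mean over the 55 genes in all 24 groups and for the named genes in hippocampus. Of 90 groups examined 14 had a gap above Dixon's 95% critical value, or 15.6%, where chance gives about 5%. The groups share libraries, and 10 of the 14 are 1 library.

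For the mean over the 55 genes 3 libraries stood far from the rest of their group: Q130 hippocampus 6 months male 5 at -0.54 log2 CPM, Q130 striatum 6 months male 1 at 3.14 and Q130 striatum 12 months female 2 at 2.20. The library labelled Q130 hippocampus 6 months male 5 was also the lowest of its group, by log2 CPM, for ENSRNOG00000057703 (4.35), ENSRNOG00000015397 (4.78), ENSRNOG00000018580 (-4.11), ENSRNOG00000005048 (-0.13), ENSRNOG00000013304 (0.55), ENSRNOG00000000307 (2.93), ENSRNOG00000038784 (-1.59), ENSRNOG00000046863 (2.80) and ENSRNOG00000001036 (4.14). In WT hippocampus of 6 months, ENSRNOG00000015397 was low in female 5 (7.16) and ENSRNOG00000038784 in male 3 (3.09).

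In male 5 the mean over the 98 striatum-enriched genes was 4.09 log2 CPM, and in the striatal library of the same animal it was 0.51. Their correlations with the other tissue's libraries, 0.983 with striatum and 0.986 with hippocampus, exceeded those with their own, 0.933 and 0.938. The striatal library of Q130 female 2 of 12 months also correlated better with hippocampus (0.976) than with its own tissue (0.961). How these libraries came about was not tested.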

How the results depend on the processing

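No member was called between genotypes in hippocampus under any alternative. The 6-month median log2 fold change went from -0.16 to 0.00 without libraries that stand apart, to -0.26 with the replicate block, and ran from -0.22 to -0.01 over fits without 1 replicate. The limit of the rule decides the list: 106 genes at a margin of 1.5 and 34 at 2.5. DESeq2 called 2 members in striatum of 2 months (edgeR 0) and 4 between sexes at 12 months (edgeR 1), and gave no adjusted p for the gene called in cerebellum of 12 months. Without 1 replicate, the cerebellar call numbered 0 to 1 and the Q130 age calls 1 to 2, the latter 2 without libraries that stand apart. These fits for cerebellum and Q130 age were added after seeing the data. The same replicate number names different animals in different tissues, so a shared number marks no fixed pair of animals. Whether it pairs libraries within hippocampus was not settled, because differently numbered pairs were not compared. Same-numbered libraries of the genotypes had median correlations of 0.07, 0.11 and 0.07 at 2, 6 and 12 months, the highest 0.16, 0.6 and 0.15. Correlations were above 0.1 in 5, 5 and 3 of 10 pairs. With the replicate block 0 members were called between genotypes in hippocampus at each age, 14 between 6 and 2 months in WT (12 without it), where 2454 of 15474 genes were called, and 1 in Q130, where genes called fell from 163 to 43. Depth limits the members tested outside hippocampus to 24 to 37 of 55.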
